A study of Mus musculus with 2 samples.

Results

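The collagen and laminin genes were taken as every gene whose symbol is Col, a number, a and a number, or Lam, a, b or c and a number. The rule found 55 of the 31053 genes in the deposited tables, 44 collagen chains and 11 laminin chains, and it used no measured value. Their RNA was counted in single cells of the dentate gyrus, the part of the hippocampus that keeps making neurons, dissected from mice at postnatal day 2. One library came from mice that carry the Cre driver hGFAP-Cre together with Kdm6bF/F, the floxed allele of the histone demethylase gene Kdm6b, and it is labelled Kdm6b KO. The other came from littermate controls labelled WT, whose own alleles the labels do not give. Each library pooled 2 animals.

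The hGFAP-Cre transgene acts in radial glia, so neurons and glia that descend from them are in the lineage it reaches, while endothelial cells, mural cells, fibroblasts and microglia arise elsewhere. With 1 library per genotype there is no replicate, so no difference between the libraries has a test or a replicate check. Every interval below is a 95% interval for counting error alone, and what is compared is 1 library with the other.

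Collagens are trimers of chains that wind around each other in a triple helix. Fibrillar collagens build the ropes of connective tissue, collagen IV builds a net, and laminins, which are trimers of an alpha, a beta and a gamma chain, lay down a second net. The collagen IV and laminin nets, tied together by nidogens and perlecan, are the basement membrane, which in brain wraps every vessel and covers the surface under the meninges, where endothelial cells, mural cells, fibroblasts and astrocytes meet it.

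The control library gave 2958 cells with 31625208 unique molecular identifiers (UMIs, each 1 captured molecule) and a median of 7347.5 UMIs per cell, and the KO library gave 1933 cells with 25533397 UMIs and a median of 9318. Kdm6b itself was read at 57.9 CPM (the counts-per-million scale over all UMIs of a library or class; 55.3 to 60.6) in the control library and 57.6 CPM (54.7 to 60.6) in the KO library, and at 61.1 CPM (42.3 to 85.4) and 76.0 CPM (57.7 to 98.2) in radial glia-like cells. Its dividing-cell level was 40.3 CPM (31.6 to 50.7) for control and a lower 17.6 CPM (9.35 to 30.03) for KO, and it stood at 111 CPM (81.5 to 147) and 46.6 CPM (20.1 to 91.9) in neuroblasts and 90.5 CPM (72.1 to 112) and 49.1 CPM (29.998 to 75.8) in intermediate progenitors. Pyramidal neurons had 43.3 CPM (39.9 to 46.8) in control and a lower 34.7 CPM (31.4 to 38.2) in KO. Astrocytes, granule neurons, Cajal-Retzius, ependymal, mural and fibroblast cells and microglia were also lower in KO, with intervals that overlap. Some other classes had the higher level in the KO library. Endothelial cells had 99.0 CPM (89.8 to 109) in control and 121 CPM (110 to 132) in KO. Oligodendrocyte-lineage cells had 34.6 CPM (22.1 to 51.4) and 79.7 CPM (43.6 to 134), and the unnamed cluster 16 had 37.5 CPM (13.7 to 81.5) and 91.5 CPM (66.5 to 123). Reads at the 3′ end can come from a transcript that lacks a deleted part, and the labels do not say which part is floxed, so this level does not check the genotype. Of the control cells 33.4% had UMIs of Y-linked genes without Xist and of the KO cells 0%, so the libraries differ in the sex of their animals as well as in genotype, and the effects cannot be told apart. The libraries shared 9 barcodes, 6 of which were kept in analysis.

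Cells were grouped by clustering in which no collagen or laminin gene took part, and a class named below, such as endothelial, means a cluster that is endothelial-like by a list of marker genes. The vascular and meningeal classes were endothelial (198 control and 198 KO cells), mural (15 and 52), fibroblast (67 and 24) and a class with both erythroid and endothelial markers (34 and 35). The class named mural holds few control cells, and 2 clusters stayed unnamed (cluster 3 and cluster 16). Mural cells here means pericytes and smooth muscle cells; Acta2, a smooth muscle marker, had 0 UMIs in control and 38 in KO mural cells. The dissected tissue was not dentate granule tissue alone: 828 control and 631 KO cells carried markers of pyramidal neurons, against 54 and 31 granule neurons; the unnamed cluster 3 (270 and 94 cells) had the granule markers Prox1 and Sema5a among its 10 leading genes.

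Several of these genes lie side by side in the genome, and the shared start regions are shown here because the results below set the neighbouring chains against each other. In the GENCODE vM21 annotation of GRCm38, Col4a2 (chromosome 8, 11312805 to 11449287, plus strand) and Col4a1 (chromosome 8, 11198423 to 11312826, minus strand) start head to head and overlap by 22 bases. The letters of that overlap, from RefSeq's promoter table of GRCm38.p6 and read on the plus strand at chr8:11312801-11312830, follow with the overlap in capitals.
Col4a1 and Col4a2: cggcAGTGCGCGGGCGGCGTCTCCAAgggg
The 30 bases were 80.0% G or C. Col4a4 and Col4a3, which code for the chains of the kidney type of collagen IV, also start head to head with 71 bases between them, at chr1:82586850-82586920 on the plus strand.
Col4a4 and Col4a3: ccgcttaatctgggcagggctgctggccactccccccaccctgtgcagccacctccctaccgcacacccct

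Col4a6 and Col4a5 form another head-to-head pair on the X chromosome, 1308 bases apart. Other neighbours run otherwise: Col9a1 and Col19a1 lie tail to tail with a gap of 9205 bases on chromosome 1, Col3a1 and Col5a2 tail to tail with 24614 bases between them, and Col6a2 and Col6a1, and Col6a6, Col6a5 and Col6a4, follow each other on the same strand. In windows from 250 bases before to 50 after a start, of which RefSeq's table held 44 for 40 of the 55 genes, GGGCGG on either strand was found in 26 of 44 (59.1%, against 35.7% of all 32851 windows), CCAAT in 14 (31.8%, against 37.4%) and TATAAA in 5 (11.4%, against 13.6%). The Col4a1 and Col4a2 windows held GGGCGG and CCAAT and no TATAAA. A match describes letters only and is not a binding site.

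All 55 genes had at least 1 UMI, and 42 had at least 50 over both libraries, the count below which no call was made. The 13 with fewer included Col4a3, Col8a1, Col10a1, Col14a1 and Col17a1. Collagens and laminins together made up 20783 UMIs of the control library (657 CPM) and 20687 of the KO library (810 CPM). A 3′ assay counts about 1 tag per transcript whatever its length, so CPM values of different genes are set side by side without a length correction.

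Most of these transcripts came from vessel and meningeal cells. The endothelial, mural, fibroblast and mixed erythroid and endothelial classes held 73.3% of control and 71.9% of KO collagen and laminin UMIs, in 10.6% and 15.99% of the cells and 17.9% and 20.5% of all UMIs. In CPM of a class, fibroblast cells were highest (9519 CPM control, 12358 CPM KO), followed by mural (2794 and 3908), with endothelial cells (2282 and 2620) and the mixed class (2316 and 2251) next. Outside vessels and meninges, ependymal cells led with 862 and 783 CPM, ahead of cluster 16 (731 and 711) and radial glia (458 and 542). Pyramidal neurons, at only 133 and 178 CPM, still held 9.01% and 9.99% of all collagen and laminin UMIs, since they were the most numerous class. Microglia had 12 and 35 such UMIs in all, and mural markers summed to 26.7 and 794 CPM in them.

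**Figure D1:**
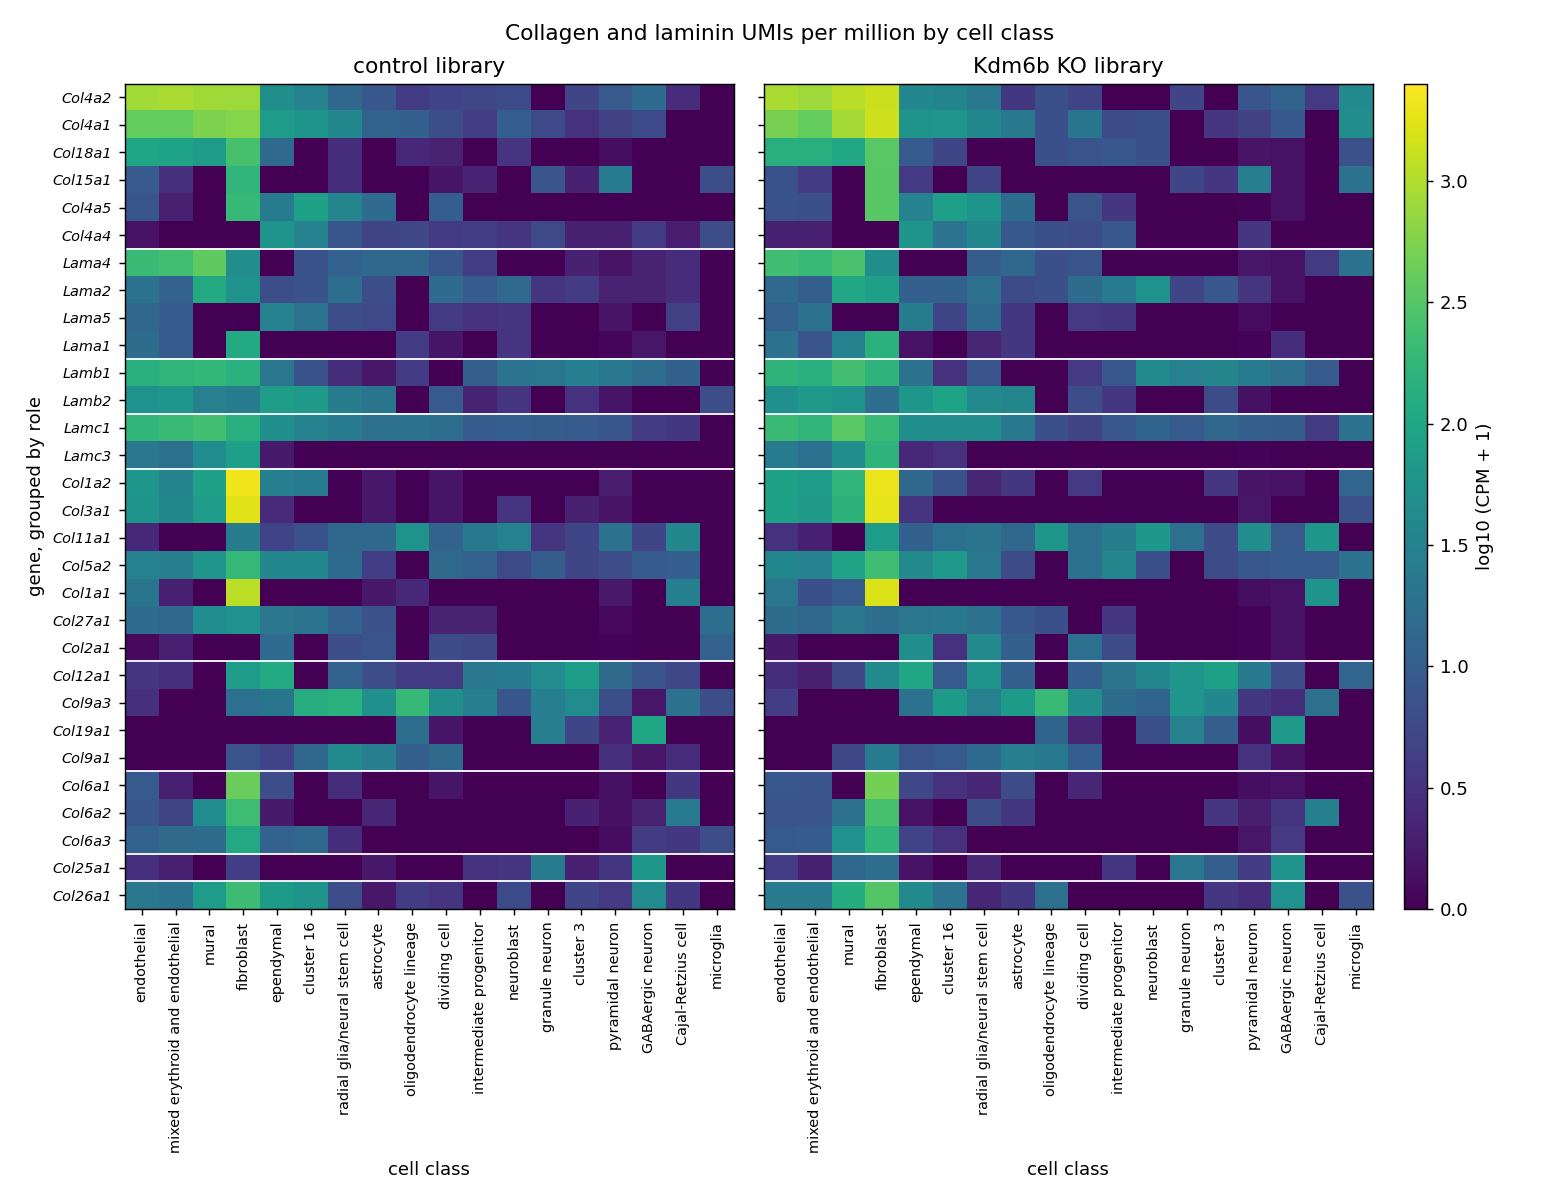
Level of each collagen and laminin gene with at least 200 UMIs (rows) in each cell class (columns), as colour for log10 of CPM + 1, with the control library in the left panel and the KO library in the right. Fibroblast, mural and endothelial columns carry the highest levels, and single rows stand out elsewhere, such as Col19a1 in GABAergic neurons and Col9a3 in oligodendrocyte-lineage cells.

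A gene was counted as high in a class where its CPM was at least 4 times that of all other cells in each library. Of the 42 genes, 24 met this in fibroblast cells (2.49% of all 14638 genes with 50 UMIs did), 10 in mural cells (3.33%) and 9 in endothelial cells (7.5%). Ependymal cells had 9 such genes (10.8% of all genes) and cluster 16 had 8 (4.54%). The mixed class had 4 (3.17%), oligodendrocyte-lineage cells 3 (2.06%), and radial glia (2.05%), astrocytes (2.75%), GABAergic neurons (1.74%) and Cajal-Retzius cells (1.86%) had 2 each. Granule neurons (0.656%) and pyramidal neurons (3.21%) had 1 each, Col19a1 and Col15a1. Intermediate progenitors (0.745%), dividing cells (3.01%), neuroblasts (0.403%), microglia (3.61%) and cluster 3 (0.656%) had 0. The class with the highest level was the same in both libraries for 36 of the 42 genes.

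Col4a1 and Col4a2, the chains that make up nearly all collagen IV of vessels, were the most abundant of these transcripts. In endothelial cells Col4a2 stood at 854 CPM in the control library (826 to 882; 3648 UMIs) and 921 CPM in the KO library (891 to 952; 3554 UMIs), and Col4a1 at 400 CPM (381 to 419) and 496 CPM (474 to 519). Both were somewhat higher in the KO library, by 0.31 on the log2 scale for Col4a1, short of the 1.5-fold used as a call. Endothelial cells held 70.9% of all Col4a2 UMIs and 65.4% of all Col4a1 UMIs. Mural cells reached similar levels, with Col4a2 at 823 CPM (622 to 1069; 56 UMIs) and 1120 CPM (988 to 1263) and Col4a1 at 529 CPM (371 to 733; 36 UMIs) and 864 CPM (749 to 992).

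In fibroblast cells Col4a1 stood at 607 CPM (523 to 700; 187 UMIs) in the control library and 1423 CPM (1220 to 1649; 176 UMIs) in the KO library, and Col4a2 at 791 CPM (695 to 897) and 1350 CPM (1153 to 1571). The KO library was the higher for both chains, and the intervals do not overlap. Fibroblast and mural levels of Col4a1 were the 2 called differences of this gene between the libraries in single classes, at log2 1.23 (ratio 1.90 to 2.90) and 0.69 (1.14 to 2.40).

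Col4a1 and Col4a2 did not keep 1 ratio of UMIs across classes. A collagen IV trimer of this kind holds 2 chains of the first and 1 of the second, but UMIs count transcripts and not protein chains. Col4a2 UMIs outnumbered those of Col4a1 by 2.14 to 1 in control endothelial cells (2.02 to 2.26) and 1.86 to 1 in KO endothelial cells (1.76 to 1.96). The ratio was 2.22 and 1.95 in pyramidal neurons, 1.56 and 1.296 in mural cells and 1.31 and 0.949 in fibroblast cells. Ependymal cells had it the other way round, with 0.674 (0.483 to 0.935) and 0.669 (0.497 to 0.898), as had radial glia with 0.35 (0.125 to 0.862) and 0.586 (0.302 to 1.10, which holds 1). In ependymal cells Col4a1 was read at 71.8 and 55.9 CPM and Col4a2 at 48.4 and 37.4 CPM. These 6 classes thus stood in the same order in both libraries, from the pyramidal and endothelial classes to the ependymal cells and radial glia. Intervals of some neighbouring classes overlap, and the 6 are not all classes. GABAergic neurons, with 3.0 and 1.47, and astrocytes, with 0.647 and 0.111, kept no fixed place among them. The mixed erythroid and endothelial class, with 2.30 and 2.005, was highest beside the 6 in both libraries. The pyramidal ratio rests on 113 and 82 UMIs of Col4a2, against 3648 and 3554 in endothelial cells. Endothelial markers summed to 77.2 and 53.8 CPM in pyramidal neurons and to 11027 and 11030 CPM in endothelial cells. The part that endothelial RNA plays in the pyramidal ratio was not tested.

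**Figure D2:**
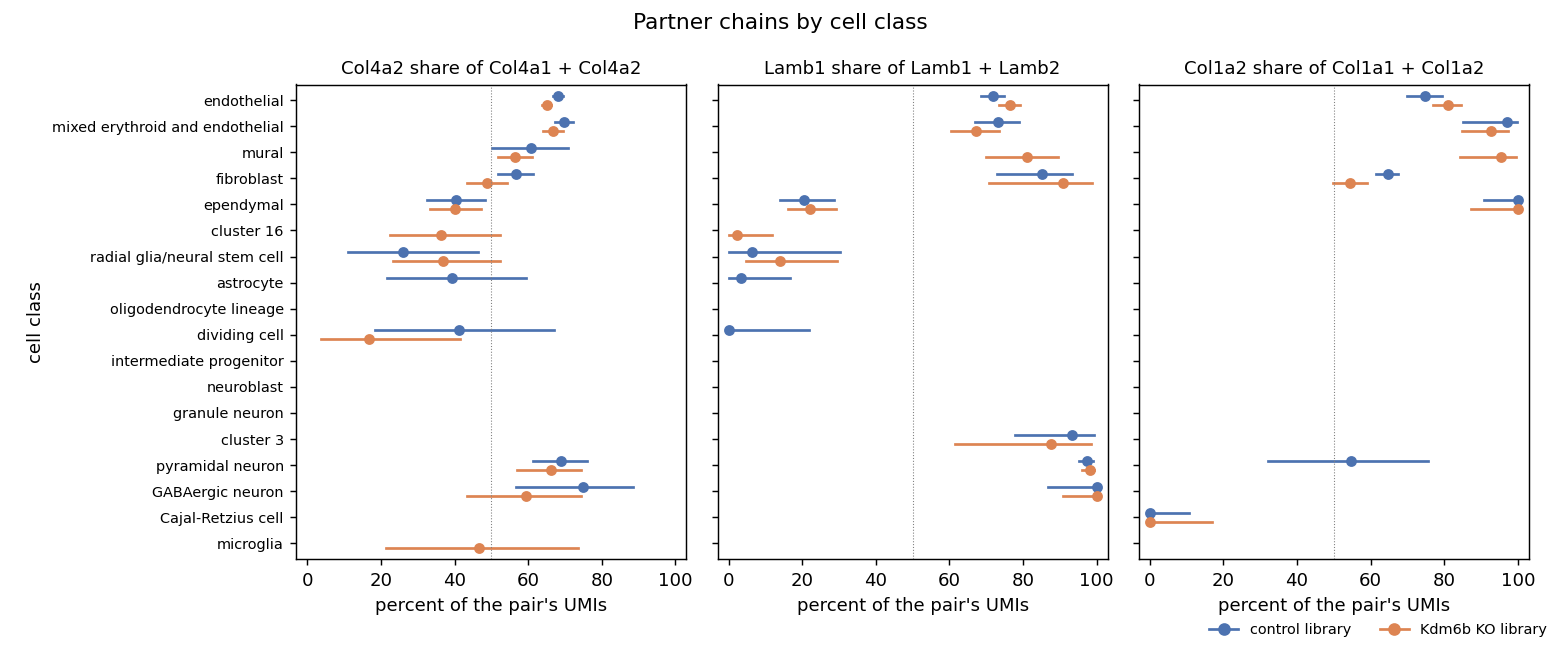
Share of a pair's UMIs, in percent, that belongs to the first-named chain (Col4a2 of Col4a1 and Col4a2, Lamb1 of Lamb1 and Lamb2, Col1a2 of Col1a1 and Col1a2) in each class with at least 15 UMIs of the pair; points are the control and KO libraries, bars are 95% Clopper-Pearson intervals, and the dotted line marks equal counts. Col4a2 lies above the line in endothelial and below it in ependymal cells in both libraries. Lamb1 is nearly all of the pair in pyramidal neurons and the lesser part in ependymal cells. It is a smaller part still in radial glia and control astrocytes, among other classes.

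The other collagen IV chains had their own places, and Col4a3 and Col4a6 are named here only as the neighbours of Col4a4 and Col4a5. Col4a4 was an ependymal transcript, at 56.7 CPM (44.6 to 71.1) in the control library and 57.3 CPM (47.5 to 68.4) in the KO library, with 59.4% of its UMIs in that class. Its head-to-head neighbour Col4a3 had 2 UMIs against 75 of Col4a4 in control ependymal cells and 0 against 121 in KO ependymal cells. Thus the paired starts printed above did not go with paired transcript levels in this class. Col4a5 was highest in fibroblast cells (188 CPM, 143 to 243, and 323 CPM, 231 to 440), with 87.4 and 81.1 CPM in cluster 16 and 34.1 and 56.3 CPM in radial glia. Col4a6 followed it at 0.534 and 0.3 UMIs per UMI of Col4a5 in fibroblast cells and at 0.091 and 0.121 in ependymal cells.

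Col18a1, which codes for the basement membrane collagen whose end is released as endostatin, was read at 102 CPM (92.9 to 112) and 132 CPM (121 to 144) in endothelial cells and at 259 and 339 CPM in fibroblast cells. Endothelial cells held 67.7% of its UMIs. Its relative Col15a1 was split otherwise: in CPM it was highest in fibroblast cells, at 172 CPM (129 to 225) and 323 CPM (231 to 440), yet 78.4% of its UMIs came from pyramidal neurons, at 23.7 CPM (21.2 to 26.4) and 27.8 CPM (24.8 to 31.0). The pyramidal level of Col15a1 was alike in both libraries and stood 4.19-fold and 4.71-fold above that of all other cells.

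Of the laminin chains Lama4, an alpha chain typical of vessels, had the highest level in endothelial cells. It was read at 204 CPM (190 to 218) and 230 CPM (215 to 246) in endothelial cells and at 368 CPM (238 to 543; 25 UMIs) and 268 CPM (206 to 343) in mural cells, and 73.1% of its UMIs were endothelial. The beta chain Lamb1 stood at 137 and 162 CPM and the gamma chain Lamc1 at 170 and 204 CPM in endothelial cells. In mural cells Lamb1 was at 176 and 238 CPM and Lamc1 at 235 and 341 CPM. All 3 chains were therefore present together in both vessel classes, each within 1.5-fold between the libraries in endothelial cells.

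Lama2, the alpha chain of the laminin that is lost in merosin-deficient muscular dystrophy, was highest in mural cells at 118 CPM (50.8 to 232; 8 UMIs) and 106 CPM (68.9 to 157). Lama1, an alpha chain of the embryonic and pial basement membrane, was highest in fibroblast cells at 120 CPM (84.5 to 165) and 145 CPM (86.2 to 230), against 14.7 and 17.6 CPM in endothelial cells. Lamc3 was highest in the same class, at 81.1 CPM (25 UMIs) and 162 CPM (20 UMIs). The ratio of Lamc3 between the libraries lay at 1.05 to 3.74 on fewer than 50 UMIs, too few for a call, and the intervals of Lama1 and Lama2 hold 1.

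Lama5 was at least 4-fold higher in ependymal cells than in all other cells in both libraries. It stood at 31.0 CPM (22.2 to 42.1) and 26.0 CPM (19.6 to 33.9) in ependymal cells and at 12.4 and 10.9 CPM in endothelial cells. Ependymal cells had 0 UMIs of Lama4 in either library against 41 and 55 of Lama5, and mural cells had 25 and 63 of Lama4 against 0 and 0 of Lama5, while endothelial cells had 16.4 and 21.1 UMIs of Lama4 per UMI of Lama5. Alpha chain use thus separated the ependymal from the mural class in both libraries. Lamb2 was spread over several classes, at 78.6 CPM (64.3 to 95.3) and 61.5 CPM (51.4 to 73.1) in ependymal cells, 68.7 and 91.5 CPM in cluster 16, and 53.6 and 49.8 CPM in endothelial cells, which held 42.2% of its UMIs.

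Lamb1 and Lamb2, alternative beta chains, were in opposite order in pyramidal and GABAergic neurons and in ependymal cells and astrocytes. Pyramidal neurons had 313 control UMIs of Lamb1 against 8 of Lamb2 and 277 KO UMIs against 5, and GABAergic neurons 26 against 0 and 38 against 0. Ependymal cells had 0.26 and 0.285 UMIs of Lamb1 per UMI of Lamb2, and control astrocytes 1 against 30. Endothelial cells lay between, with 2.55 and 3.25 UMIs of Lamb1 per UMI of Lamb2. In pyramidal neurons Lamb1 also exceeded its gamma partner Lamc1, by 3.13 and 2.47 to 1, while in endothelial cells it was the lesser of the pair (0.806 and 0.791).

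The chains of collagens I and III were highest in fibroblast cells, unlike the fibrillar chains Col2a1 and Col11a1 described further on. Col1a2 was read in fibroblast cells at 2102 CPM (1943 to 2270; 648 UMIs) in the control library and 1988 CPM (1748 to 2253; 246 UMIs) in the KO library, Col3a1 at 1742 CPM (1597 to 1895) and 1883 CPM (1649 to 2141), and Col1a1 at 1151 CPM (1035 to 1278) and 1665 CPM (1445 to 1909). Col1a1 was the only chain of these 3 whose intervals did not overlap, by log2 0.53 (ratio 1.21 to 1.72), which is under the call of 1.5-fold. Fibroblast cells held 69.7% of all Col1a1 UMIs, 51.3% of Col1a2 and 50.3% of Col3a1, and the rest of Col1a2 and Col3a1 lay largely in endothelial barcodes, treated further on. Fibroblast cells had 1.83 (1.60 to 2.08) and 1.19 (0.988 to 1.44, which holds 1) UMIs of Col1a2 per UMI of Col1a1. The collagen I trimer holds more alpha 1 than alpha 2 chains, but UMIs count transcripts and not protein chains. Col5a2, which helps to set the width of collagen fibrils, was highest in the same class at 182 CPM (137 to 236) and 226 CPM (150 to 327).

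Collagen VI, a microfibril of 3 different chains, was led by Col6a1 at 415 CPM (346 to 494) and 493 CPM (377 to 633) in fibroblast cells, followed by Col6a2 at 217 and 259 CPM and Col6a3 at 110 and 170 CPM. Col6a2 also appeared in Cajal-Retzius cells, early neurons of the hippocampal surface, with 27 UMIs against 3 of Col6a1 in the control library and 10 against 0 in the KO library. Collagen VI is secreted as a trimer of all its chains, and in this class the alpha 2 chain was nearly alone in the counts. Cajal-Retzius cells also had Col1a1 without its partner: 33 and 20 UMIs of Col1a1 (28.5 CPM, 19.6 to 40.0, and 56.7 CPM, 34.6 to 87.6) against 0 and 0 of Col1a2, and 0 and 0 of Col3a1. A count of 0 allows up to 3 UMIs in each library. Col1a1 UMIs were found in 13.95% of control and 34.4% of KO Cajal-Retzius cells (18 of 129 and 11 of 32; median 9069 and 11722 UMIs per cell), against 1.21% and 0.634% of pyramidal neurons (median 15994 and 17144).

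Fibroblast cells were the least sure of the classes. Their median depth was 2262 UMIs for control and 4727.5 for KO cells, and the endothelial markers summed to 1615 CPM and 461 CPM in them against 11027 and 11030 CPM in endothelial cells. Mural markers summed to 2689 and 3669 CPM in fibroblast cells, of which Vtn made up 2329 and 3249 CPM. Fibroblast markers summed to 4476 and 3920 CPM. Besides 7 fibroblast markers the cluster showed 4 astrocyte markers. Clustered at resolution 2 the class came down to 36 control and 15 KO cells, in which Col4a1 was at 709 CPM and 1679 CPM (log2 1.24). The part that other cells' RNA or depth plays in the fibroblast values was not tested.

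Among 17 collagen and laminin genes with 50 UMIs in fibroblast cells, 5 were at least 1.5-fold higher in the KO library and 0 lower, where 7.62% and 7.75% of all 1510 such genes were; their median difference was log2 0.40 against 0.04 over all genes. Besides Col4a1 they were Col4a2 (0.77, ratio 1.39 to 2.09), Col15a1 (0.92, 1.22 to 2.89), Col4a5 (0.79, 1.12 to 2.62) and Col6a3 (0.64, 0.849 to 2.73), the last with an interval that holds 1. In mural cells 1 of 5, Col4a1, was higher and 0 lower (8.76% and 7.95% of all genes). Beside it the smooth muscle marker Acta2 had 0 UMIs in control and 38 (162 CPM) in KO mural cells, and its part in the Col4a1 difference was not tested. Of the fibrillar chains in fibroblast cells, Col1a2 (-0.08) and Col3a1 (0.11) were near 0, Col5a2 was at 0.33, and Col1a1 was at the 0.53 given above.

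In endothelial cells 1 of 23 genes, Col3a1, was called higher and 0 lower (2.82% and 4.06% of all 9361 genes), and the median difference was log2 0.11 against -0.02 over all genes. Col3a1 stood at 57.4 CPM (50.4 to 65.0) in the control library and 88.4 CPM (79.3 to 98.3) in the KO library, a difference of 0.62 (ratio 1.304 to 1.82). Col1a2 was next at 0.55, followed by Col18a1 at 0.37. The Col3a1 call was lost with a stricter cell filter (0.57), without doublet removal (0.43), with single cells classed by markers (0.06) and in Xist-positive cells (0.52). The collagen IV and laminin genes of this class therefore showed no call between the libraries. In the mixed erythroid and endothelial class 2 of 10 genes were higher and 0 lower (3.72% and 3.84% of all genes), Col3a1 at 0.84 (1.19 to 2.75) and Col1a2 at 1.16 (1.48 to 3.47).

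**Figure D3:**
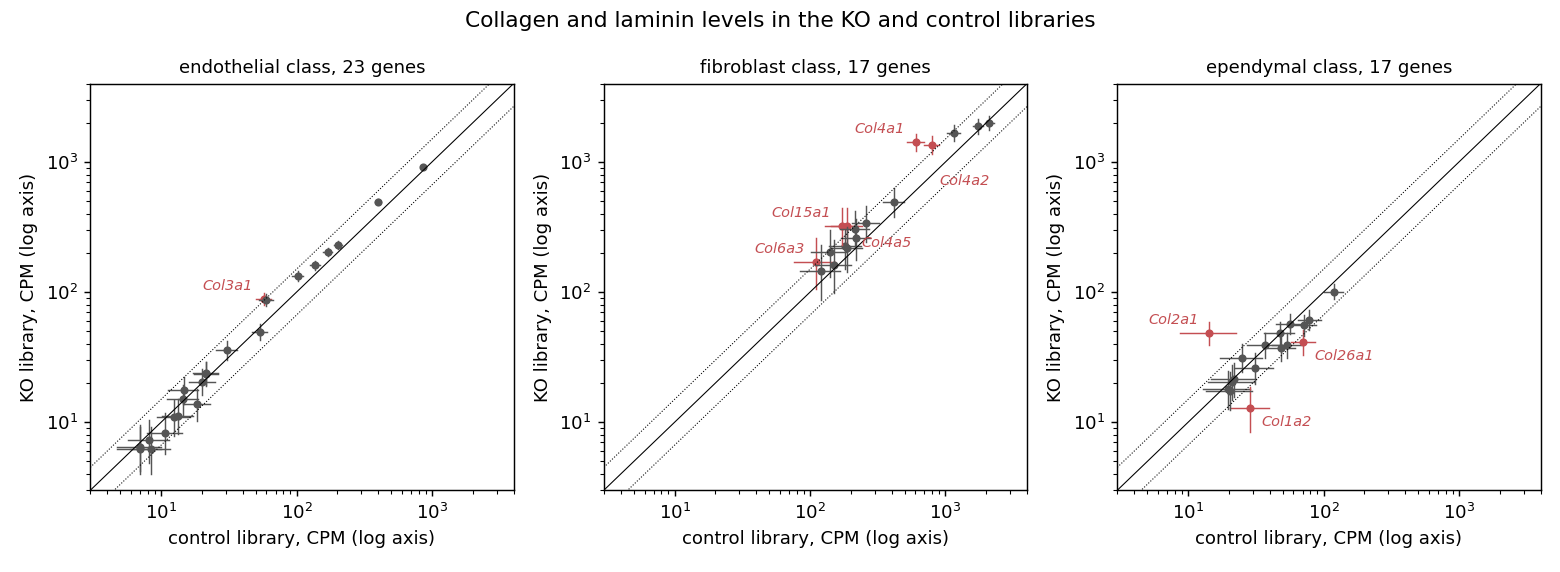
CPM in the KO library (vertical, log axis) against CPM in the control library (horizontal, log axis) for each collagen and laminin gene with 50 UMIs in endothelial, fibroblast or ependymal cells, with bars for 95% counting intervals, the solid line marking equal levels and dotted lines 1.5-fold. Named red points are at least 1.5-fold apart, and most genes lie between the lines, with Col4a1 and Col4a2 above them in fibroblast cells and Col2a1 above them in ependymal cells.

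Endothelial barcodes also carried mural RNA. Mural markers summed to 4200 CPM in control and 3585 CPM in KO endothelial cells, against 22687 and 23098 CPM in mural cells. After the values were seen, endothelial barcodes were split into those with mural and fibroblast markers each under 0.1% of UMIs (29 control and 61 KO; mural markers 384 and 78.5 CPM, median 7873 and 7185 UMIs) and the others (169 and 137; 4504 and 4363 CPM, median 23291 and 22535). The split uses those markers and not the collagen genes, and the groups differ in depth.

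Col1a2, Col3a1 and Col1a1 were almost confined to the barcodes with mural or fibroblast markers. Col3a1 was at 0 and 2.9 CPM in the low-marker barcodes and at 61.9 and 107 CPM in the others, Col1a2 at 0 and 2.9 CPM against 64.4 and 106 CPM, and Col1a1 at 0 and 0 against 21.7 and 25.03 CPM. The basement membrane genes were found in both: Col4a2 at 451 and 488 CPM in the low-marker barcodes and 886 and 1018 CPM in the others, Col4a1 at 222 and 288 CPM against 414 and 542 CPM, and Lama4 at 187 and 168 CPM against 205 and 244 CPM. Lamb1 stood at 121 and 97.1 CPM against 138 and 176 CPM, Lamc1 at 111 and 128 CPM against 174 and 221 CPM, and Col18a1 at 69.8 and 64.2 CPM against 105 and 148 CPM. In the low-marker barcodes 0 of 6 genes were called between the libraries (6.01% of all genes higher, 6.13% lower), and in the others 2 of 23 were, Col3a1 at 0.79 and Col1a2 at 0.72 (3.45% and 4.08%). Endothelial Col3a1 UMIs thus lay, in both libraries, almost all in barcodes that also held mural or fibroblast transcripts, whose part in the difference was not tested.

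**Figure D4:**
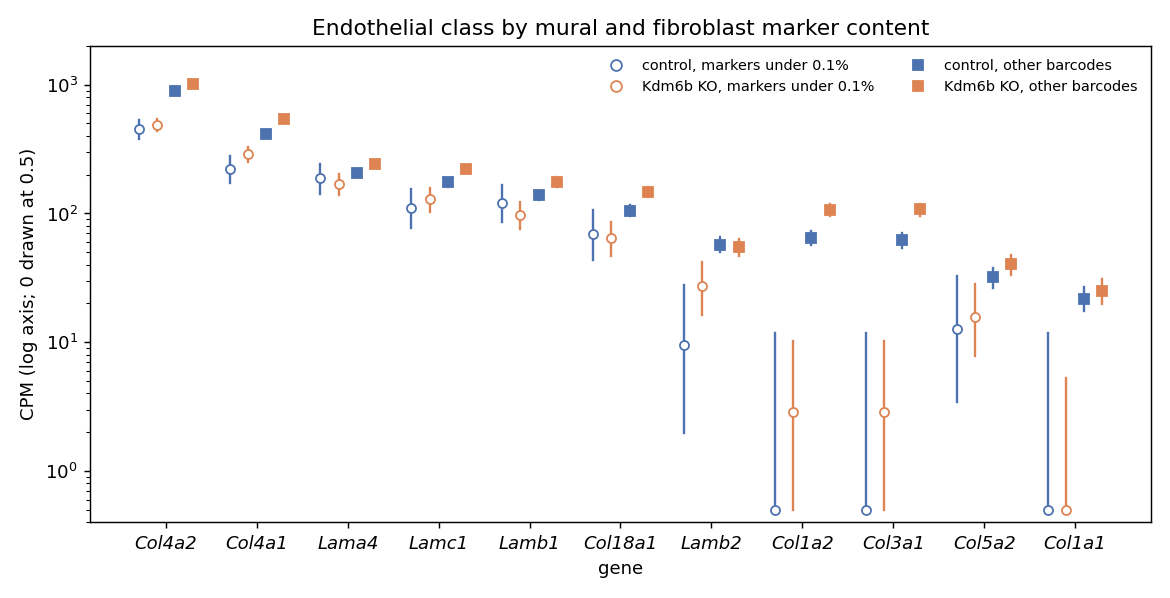
CPM (log axis) of 11 basement membrane and fibrillar genes in endothelial barcodes with mural and fibroblast markers under 0.1% of UMIs (open circles) and in the other endothelial barcodes (filled squares), for the control and KO libraries, with 95% counting intervals and values of 0 drawn at 0.5. Col1a1, Col1a2 and Col3a1 are at or near 0 in the low-marker barcodes, and Col4a1, Col4a2 and Lama4 are well above 0 in both sets.

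Ependymal cells line the ventricles, and several collagens were at least 4-fold higher in them than in all other cells. Col12a1, which binds to the surface of collagen fibrils, was read there at 119 CPM (102 to 140) and 100.8 CPM (87.7 to 115), ahead of cluster 3 with 80.0 and 83.5 CPM. Col8a2, a network-forming short-chain collagen, had 88.5% of its UMIs in ependymal cells, at 53.7 and 39.3 CPM. Col27a1 stood at 21.2 and 20.4 CPM, though it was at 51.9 CPM (16 UMIs) in control and 16.2 CPM (2 UMIs) in KO fibroblast cells and endothelial cells held 39.9% of its UMIs. Pyramidal neurons held 39.1% of the Col12a1 UMIs. Col5a3 and Lama3 were also at least 4-fold above the other cells in both libraries.

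Among 17 genes with 50 UMIs in ependymal cells, 1 was higher and 2 lower in the KO library (6.49% and 4.31% of all 8450 genes), and the median difference was log2 -0.23 against 0.01 over all genes. Clustered at resolution 2, ependymal cells fell into 1 cluster of 42 control and 126 KO cells and 1 of 48 and 33. The makeup of the class thus differed between the libraries, and its part in the ependymal differences was not tested. Col2a1, the fibrillar collagen of cartilage, had 19 UMIs (14.4 CPM, 8.65 to 22.4) in control and 102 (48.3 CPM, 39.4 to 58.6) in KO ependymal cells, log2 1.72 (ratio 2.05 to 5.81). It was the higher one. After each cell was thinned to 2000 UMIs, 0 of 84 control ependymal cells had a Col2a1 UMI, which allows a share of up to 3.57%, and 15 of 148 KO cells had one, 10.1% (5.78 to 16.2); unthinned shares were 17.8% and 39.0%, at median depths of 15407 and 12023 UMIs. Endothelial cells, thinned alike, had 0 of 183 and 0 of 171, and unthinned 0.505% and 1.52%, at median depths of 21595 and 18287 UMIs.

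Col26a1 and Col1a2 were the lower ones. Col26a1 was at 71.1 CPM (57.4 to 86.98) and 41.2 CPM (33.0 to 50.8), log2 -0.79 (ratio 0.428 to 0.784), and Col1a2 at 28.7 CPM (20.3 to 39.4) and 12.8 CPM (8.42 to 18.6), log2 -1.16 (0.261 to 0.748). The ependymal Col1a2 UMIs came without their usual company: 38 and 27 UMIs of Col1a2 stood against 0 and 0 of Col1a1, 2 and 5 of Col3a1, and 1 and 0 of Dcn, a proteoglycan abundant in fibroblasts. In fibroblast cells Col1a2 had 1.06 and 1.29 UMIs per UMI of Dcn. Col1a2 was found in 31.1% of control and 13.2% of KO ependymal cells against 1.45% and 0.951% of pyramidal neurons, at the median depths given above.

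Over all cells, 6 of 42 genes were at least 1.5-fold higher in the KO library and 1 lower (6.6% and 4.25% of all 14638 genes), with a median difference of log2 0.29 against a median near 0 over all genes. The higher ones were Col2a1 (1.94), Lama3 (1.06, 20 and 34 UMIs), Col4a4 (0.96), Col11a1 (0.94), Col22a1 (0.76, 35 and 48 UMIs) and Col8a2 (0.67), and the lower one was Col9a3 (-0.82). Ependymal cells made up 3.04% of the control and 8.23% of the KO cells, and Col2a1, Col4a4, Col8a2 and Lama3 were all at least 4-fold higher there than elsewhere in both libraries. Levels over all cells move with such shares, and how far the share accounts for these values was not tested. With the stricter cell filter Lama3 came to 0.01, Col8a2 to 0.19 and Col22a1 to 0.47, and in Xist-positive cells Lama3 came to 0.37 and Col8a2 to 0.33. Within ependymal cells Col4a4 was at nearly equal levels in both libraries, and Col8a2 was lower in the KO library by less than the 1.5-fold of a call.

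Col9a3, 1 of the 3 chains of collagen IX, a fibril-associated collagen, was highest in oligodendrocyte-lineage cells, at 189 CPM (158 to 224) and 199 CPM (139 to 277), followed in the control library by radial glia at 146 CPM (116 to 181; 81 UMIs). In KO radial glia it was at 28.8 CPM (18.1 to 43.6; 22 UMIs), below KO granule neurons at 58.1 CPM (14 UMIs). In radial glia the KO library was lower by log2 -2.31 (ratio 0.118 to 0.320), and the intervals are far apart.

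Col9a3 was, after thinning to 2000 UMIs, found in 32 of 133 control radial glia, 24.1% (17.1 to 32.2), and 8 of 115 KO radial glia, 6.96% (3.05 to 13.2); unthinned shares were 35.9% and 14.2%, at median depths of 3811.5 and 5437.5 UMIs. Endothelial cells had 0 of 183 and 0 of 171 when thinned and 3.54% and 5.56% when not. Clustered at resolution 2, radial glia fell into 1 cluster of 56 control and 112 KO cells, in which Col9a3 was at 49.7 and 18.2 CPM, and 1 of 85 and 21 cells, in which it was at 216 and 113 CPM. The KO library was lower in both, by log2 -1.45 and -0.87, less than in the class as a whole, whose makeup differed between the libraries. Of 2 genes with 50 UMIs in radial glia Col9a3 was the lower and Col4a5 the higher, at 0.70 with an interval that holds 1 (0.941 to 2.998); 8.76% of all genes were higher and 10.3% lower.

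The lower Col9a3 of the KO library was not seen in every class. In astrocytes it stood at 50.3 CPM (39.6 to 62.9) and 70.1 CPM (46.6 to 101.3), log2 0.49, in oligodendrocyte-lineage cells the difference was 0.09, in dividing cells 0.04 and in ependymal cells -0.14. None of the astrocyte (2 genes), oligodendrocyte-lineage (1) and dividing (1) genes with 50 UMIs was called, where 5.97% and 7.51%, 7.57% and 12.6%, and 4.73% and 7.22% of all genes were called higher and lower. In cluster 16, Col9a3 was at 131 and 70.7 CPM, log2 -0.90 (ratio 0.304 to 0.978), the lower of 3 genes there with 0 higher (8.67% of all genes lower, 8.86% higher). In cluster 3, 0 of 2 genes were called (6.03% of all genes higher, 7.54% lower), and in intermediate progenitors, neuroblasts, granule neurons and microglia none reached 50 UMIs. Whether the radial glia difference exceeds those of the other classes was not tested.

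Other genes of radial glia had fewer than 50 UMIs and are given as values chosen after they were seen. Col9a1, another collagen IX chain, was at 41.3 CPM (26.2 to 62.0; 23 UMIs) and 14.4 CPM (7.19 to 25.8; 11 UMIs) in radial glia and at 27.8 and 27.5 CPM in astrocytes. Col12a1 had 6 and 43 UMIs in radial glia, Col2a1 3 and 30, and Col4a4 4 and 28. These 3, each at least 4-fold higher in ependymal cells than elsewhere in both libraries, had more UMIs in KO than in control radial glia. In the resolution 2 cluster of 56 and 112 cells Col12a1 was at 27.1 and 65.3 CPM and Col2a1 at 13.5 and 45.6 CPM.

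**Figure D5:**
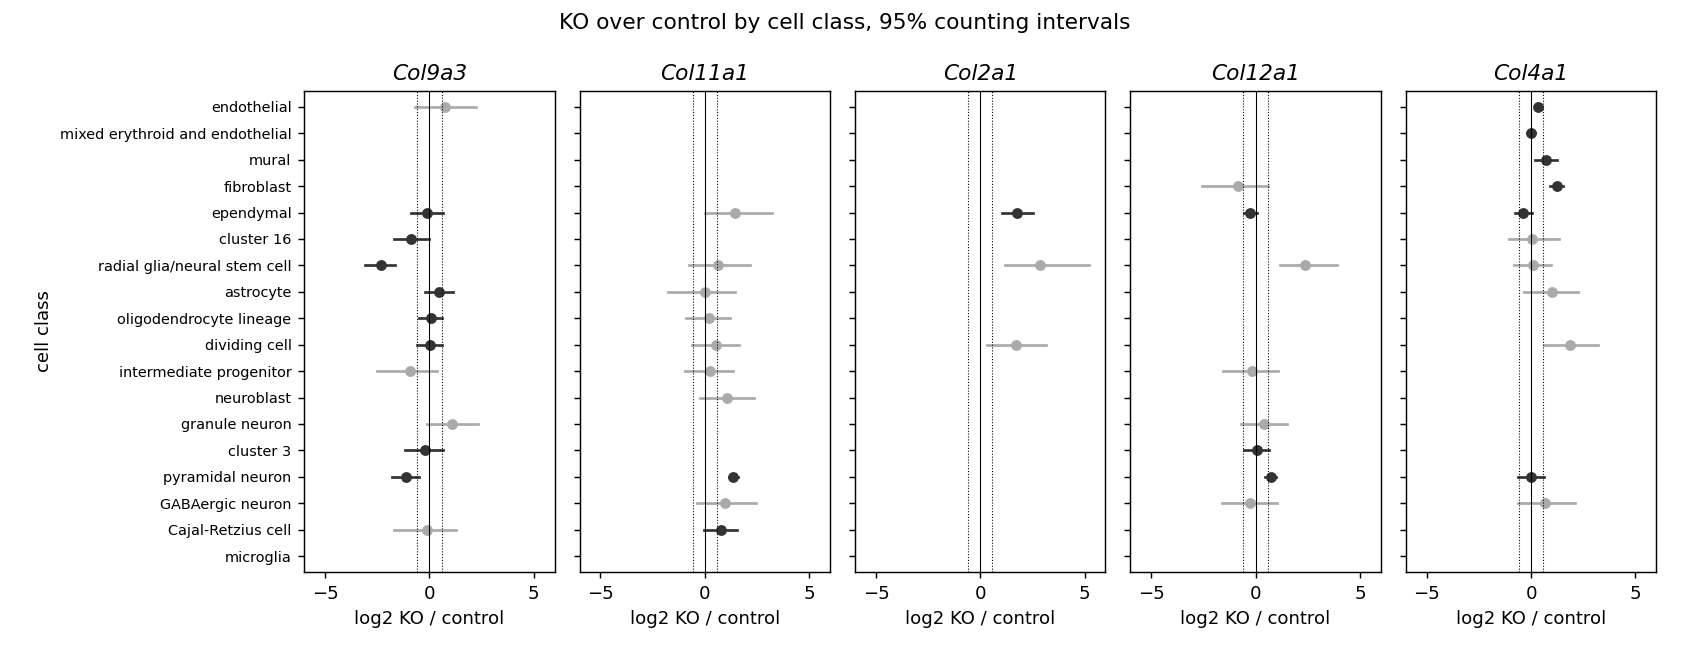
Difference between libraries, as log2 of CPM in the KO over the control library with 95% counting intervals, for Col9a3, Col11a1, Col2a1, Col12a1 and Col4a1 in each class with at least 20 UMIs; dotted lines mark 1.5-fold and grey points have fewer than 50 UMIs in the class. Col9a3 lies farthest below 0 in radial glia, and Col2a1 in ependymal cells, Col11a1 in pyramidal neurons and Col4a1 in fibroblast cells lie above the lines.

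Neurons had few collagens, and some of these lay mostly in 1 neuronal class. Col19a1, a fibril-associated collagen known from hippocampal interneurons, had 83.3% of its UMIs in GABAergic neurons, at 100 CPM (85.4 to 116) and 66.8 CPM (56.6 to 78.4), with 27.3 and 29.0 CPM in granule neurons and 1.20 and 0.344 CPM in pyramidal neurons. Col25a1, a transmembrane collagen found in amyloid plaques, had 64.8% of its UMIs in GABAergic neurons, at 63.1 CPM (51.6 to 76.3) and 55.3 CPM (46.0 to 65.9). Col26a1 was spread wider, from fibroblast cells (214 and 307 CPM) through ependymal cells to GABAergic neurons (42.2 and 50.8 CPM). In GABAergic neurons 0 of 4 genes were called between the libraries (3.77% of all genes higher, 3.88% lower), with differences from -0.58 to 0.26.

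Col11a1, a minor fibrillar chain of cartilage, had 68.8% of its UMIs in pyramidal neurons, where it stood at 17.6 CPM (15.4 to 19.9; 248 UMIs) in the control library and 45.2 CPM (41.4 to 49.2; 525 UMIs) in the KO library. The KO library was higher by log2 1.36 (ratio 2.21 to 3.003). Col11a1 was higher in the KO library in each of the 4 pyramidal clusters: 15.99 and 42.7 CPM in cluster 0, 23.5 and 64.7 CPM in cluster 2, 16.8 and 26.7 CPM in cluster 4, and 19.1 and 37.6 CPM in cluster 6. Clustered at resolution 2, a pyramidal cluster held 21 control and 147 KO cells and another held 225 and 57. The makeup of the pyramidal class thus differed between the libraries, and its part in the pyramidal differences was not tested. After thinning, 36 of 793 control and 63 of 613 KO pyramidal neurons had a Col11a1 UMI, 4.54% (3.20 to 6.23) and 10.3% (7.99 to 12.96); unthinned shares were 23.8% and 49.4%, against 3.03% and 3.54% in endothelial cells. Col11a1 was also read in oligodendrocyte-lineage cells, at 54.7 and 62.6 CPM, with overlapping intervals. With single cells classed by their own markers in place of clusters the pyramidal difference of Col11a1 came to 0.52, under the call.

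In pyramidal neurons 2 of 12 genes were higher and 1 lower in the KO library (3.72% and 5.56% of all 11490 genes), with a median difference of log2 0.20 against -0.03 over all genes. Col12a1 was the second higher one, at 13.8 CPM (11.9 to 15.9) and 22.8 CPM (20.1 to 25.7), log2 0.72 (1.37 to 2.00), but its differences in the clusters 0, 2, 4 and 6 were -0.08, 0.42, 1.28 and 0.98. Col9a3 was the lower one, at 5.59 and 2.58 CPM, log2 -1.10 (0.292 to 0.711), and -0.52 as a mean over cells. In Cajal-Retzius cells 2 of 2 genes were higher (5.85% of all genes higher, 6.27% lower), Col1a1 at 1.01 (1.08 to 3.57) and Col11a1 at 0.80 with an interval that holds 1 (0.977 to 2.94). In cells with Xist UMIs only, which leaves out cells of male animals, Col1a1 in Cajal-Retzius cells came to -0.088.

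Genes that act with collagens and laminins were read from 5 lists. Over all cells 8 of the 89 with 50 UMIs were at least 1.5-fold higher in the KO library and 6 lower, where 6.6% and 4.25% of all genes were. By list this was 2 higher and 1 lower of 16 basement membrane partners, 3 and 1 of 27 collagen-modifying enzymes and chaperones, 1 and 1 of 17 receptors, 0 and 1 of 14 proteases and inhibitors, and 2 and 2 of 15 partners of fibrillar matrix. The most abundant basement membrane partners were Sparc (23894 control and 24522 KO UMIs), which binds collagen, Egfl7 (5152 and 4640), an endothelial secreted protein, and Agrn (2831 and 2607), a heparan sulfate proteoglycan. The modifying genes were led by Ppib (11015 and 7686), Serpinh1 (10544 and 8596), the collagen chaperone, and P4hb (2613 and 2141). Receptors were led by Itgb1 (4570 and 4222), Sv2a (2624 and 2130) and Dag1 (2083 and 2062), and proteases and inhibitors by Timp2 (3332 and 3689), Timp3 (2482 and 2035) and Mmp14 (1465 and 1032). Fibrillar partners were led by Sparcl1 (12751 and 9352), Bgn (3638 and 3425) and Fn1 (3442 and 3445).

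The partners were also counted by class. In endothelial cells 1 of 54 was higher and 2 lower (2.82% and 4.06% of all genes), with Sparc at 3710.5 and 4041 CPM and Serpinh1 at 1575 and 1427.5 CPM. In ependymal cells 12 of 44 were higher and 4 lower (6.49% and 4.31% of all genes), the largest being Vcan (6 and 79 UMIs, log2 2.94) and Tnc (23 and 150 UMIs, 2.00), matrix proteins of progenitor zones, with Fbln2 (1.98) and Nid1 (1.29), which links the laminin and collagen IV nets. The makeup of the ependymal class differed between the libraries, as given above, and its part in these values was not tested. In radial glia 7 of 28 were higher and 4 lower (8.76% and 10.3% of all genes), among them Nid1 (11 and 59 UMIs, 1.92) and Timp4 (-1.90). In pyramidal neurons 1 of 48 was higher and 8 lower (3.72% and 5.56%), in fibroblast cells 0 of 17 higher and 3 lower (7.62% and 7.75%), and in mural cells 0 of 13 either way (8.76% and 7.95%). The partners named by their differences, Vcan, Tnc, Fbln2, Nid1 and Timp4, were chosen after their values were seen.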

How the data were processed

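Single-cell RNA was measured in 1 control and 1 Kdm6b KO library of dentate gyrus. The deposited values are UMI counts per gene and barcode, whole numbers not normalized. Cell Ranger 3.0.2, Seurat 3 and mm10 are named in the submitters' processing notes, which state no role for them. Cells came from a papain dissociation and a 10x Genomics 3′ assay, per the labels' protocols.

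A minimum of 500 genes and 1000 UMIs and a maximum of 10% of UMIs from mitochondrial genes kept 3029 of 3555 barcodes in the control and 1967 of 2292 in the KO library. Scrublet marked only 12 and 10 barcodes (0.338% and 0.436%), which is too low to be of use. Instead 0.8% per 1000 barcodes were removed by rank of its score (71 and 34). Both libraries were clustered together in scanpy 1.11.5 with leidenalg 0.10.2 (counts scaled to 10000, 2000 variable genes, 30 principal components, 15 neighbours, resolution 1), with collagen, laminin and partner genes and sex-linked genes left out of the variable genes. Of 24 clusters 22 were named from 18 marker lists, with at least 3 markers in at least 10% of cells and 1.5-fold above the other clusters. A rule for ties and the name for the mixed class were added after the data were seen.

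UMIs were summed per class and library and given as CPM with exact Poisson intervals; ratios have exact conditional binomial intervals and shares Clopper-Pearson intervals, at 95%. Ratios on the log2 scale have 0.5 UMI added. A call is a CPM 1.5-fold apart (genes with 50 UMIs, classes with 10 cells in each library) or, between classes, 4-fold; it is no test. The ratio step was tested on simulated data. Thinning to 2000 UMIs left out 202 control and 157 KO cells. Named genes are those with at least 200 UMIs, those called between libraries with an interval leaving out 1, the 3 most abundant of each partner list, and 12 fixed by name; others are said to be chosen after their values were seen. The collagen and laminin genes and the lists were chosen with earlier results of these data known. Positions are from GENCODE vM21. Protein sequences were not used here. Not every gene of the set is reported by name here.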

Additional observations from a re-analysis of the deposited data

Results flagged for a closer look

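Col1a2, a chain of collagen I, differed between the libraries in opposite directions in 2 classes. Its ependymal level differed by log2 -1.16, KO over control, and in the mixed erythroid and endothelial class its level differed by log2 1.16. The difference between the classes was not tested. Mural markers summed to 4566 CPM in control and 3774 CPM in KO cells of the mixed class and to 220 CPM and 204 CPM in ependymal cells; their part in these values was not tested.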

How the results depend on the processing

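Counts below are of genes past the fold used for a call, and 22 alternatives were run, 20 of them planned; the split of endothelial barcodes and the leaving out of shared barcodes were chosen after seeing the data. Collagen and laminin UMIs in the 4 vascular and meningeal classes, 73.3% and 71.9%, came to 72.4% in the control library with no cell filter, 72.2% with each library clustered alone, 62.0% control and 62.7% KO with single cells classed by markers, and 76.1% control with Xist-positive cells only, a setting that leaves out cells of male animals. Endothelial genes called between libraries, 1, became 2 with no filter or with more variable genes, 3 with more doublets removed or with the mean over cells, 4 with a minimum of 20 UMIs, and 0 with the stricter filter, a 2-fold call, Xist-positive cells or low-marker barcodes. Over all cells the 7 became 22 with the mean over cells, 2 with a 2-fold call and 12 with Xist-positive cells. Fibroblast calls, 5, became 9 with the mean over cells, 8 with 20 UMIs, 2 with 100 UMIs and 1 with 2-fold; ependymal calls, 3, became 8 with 20 UMIs and 5 with Xist-positive cells; pyramidal calls, 3, became 0 with single cells classed by markers, 10 with 20 UMIs and 5 with Xist-positive cells. Partner genes became 25 (mean over cells) or 6 (2-fold) from 14 over all cells, 10 (100 UMIs) or 5 (2-fold) from 16 in ependymal cells, and in endothelial cells, from 3, 5 (single cells classed by markers and mean over cells), 6 (20 UMIs and Xist-positive cells), 1 (100 UMIs) and 0 (2-fold and low-marker barcodes). With 8-fold in place of 4-fold, 5 endothelial, 2 mural and 5 ependymal genes remained counted. At the unchanged 4-fold, 0 were counted in low-marker endothelial barcodes, where the other endothelial barcodes are among the cells compared. Col1a1 in Cajal-Retzius cells turned to log2 -0.088 with Xist-positive cells. Of the other differences of named genes, 367 values stayed past 1.5-fold and 15 fell short of it. This count asked for no minimum of UMIs. It holds endothelial Col3a1 in low-marker barcodes, with 0 control and 2 KO UMIs and no call. Col9a3 in radial glia stayed past 1.5-fold in 17 of 17 (-2.75 to -1.65), as did Col2a1 in ependymal cells (1.57 to 2.12) and Col4a1 in fibroblast cells (1.10 to 1.90). At resolution 2 the ependymal clusters were read together as 1 class, so that setting does not separate their makeup. The same holds for the radial glia clusters and for the clusters named pyramidal. Within each of the separate radial glia clusters the Col9a3 difference was smaller than in any of these settings, as given above. TMM scaling changed the size of the KO library relative to the control library by log2 -0.21 in mural and 0.13 in fibroblast cells. Ratios of KO over control move the opposite way, up in mural and down in fibroblast cells. The cause of these changes was not tested. No paired analysis was possible because each genotype has 1 library.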
